A study of Mus musculus with 42 samples.

Results

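The postsynaptic density scaffolds examined here are 9 genes taken by name: *Dlg1*, *Dlg2*, *Dlg3*, *Dlg4*, *Dlgap1*, *Dlgap2*, *Shank1*, *Shank2* and *Shank3*. Each gene was followed through the microarray probe sets annotated to it. In all, 8 of the 9 genes had at least 1 probe set, out of 18194 genes with a probe set, and together they had 19 of the 45037 probe sets tested. No probe set was annotated to *Shank2*, which was not analysed here. *Dlgap1* had 6 probe sets, *Dlg1*, *Dlg2* and *Dlg4* had 3 each, and *Dlg3*, *Dlgap2*, *Shank1* and *Shank3* had 1 each.

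The study set *Fmr1* knockout mice (*Fmr1*KO, written KO below), a model of fragile X syndrome, against wild-type mice (WT) in neuronal cultures and in the brain tissue from which such cultures are made. RNA was profiled on 42 arrays in 4 systems. Hippocampal cultures and cortical cultures had 5 KO and 5 WT arrays each, primary hippocampus had 6 KO and 6 WT arrays, and primary cortex had 5 KO and 5 WT arrays. All mice were of the C57BL/6 strain and untreated, and tissue was taken from embryos 17 to 18 days after conception. Cultures were started from embryos of that age and then kept for 14 days in vitro, so that time after dissection and the culture conditions cannot be told apart. Each sample was pooled from littermates, so the number of replicates counts pools and not embryos. Most mouse IDs recur across the 4 systems, and an ID is read here as marking a litter, which the labels do not say outright. Cultures contained glia besides neurons, and the tissues contained every cell type of the embryonic region.

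The postsynaptic density is the protein layer beneath the membrane of an excitatory synapse, and it is assembled from stacked scaffolds. Dlg proteins are membrane-associated guanylate kinases (MAGUKs) that hold NMDA and AMPA receptors, ion channels and adhesion proteins at the membrane. Their guanylate kinase domain binds Dlgap proteins (GKAP, SAPAP), which in turn bind Shank proteins in the deeper layer, where Shank joins Homer, mGluR5 and the actin cytoskeleton. Synapses form mostly after birth in mice, and several of these mRNAs, *Dlg4* among them, are known targets of FMRP, the RNA-binding protein that *Fmr1* encodes.

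Signals are given on the log2 scale, on which 1 unit is a 2-fold difference, and the main probe set of a gene is the one with the highest mean over all arrays. *Fmr1* itself separated the genotypes in every system. Its main probe set gave 7.88 to 8.10 in KO and 8.69 to 9.17 in WT hippocampal cultures, 7.90 to 8.44 in KO and 8.47 to 9.28 in WT cortical cultures, 8.92 to 9.18 in KO and 9.80 to 10.07 in WT primary hippocampus, and 8.89 to 9.0 in KO and 9.86 to 10.01 in WT primary cortex. Background was put at 5.16, and 15 of the 19 scaffold probe sets exceeded it in at least 1 group mean. The mean of 10 pan-neuronal markers was 10.58 to 11.29 in hippocampal cultures against 9.39 to 9.88 in primary hippocampus, and 10.53 to 11.14 in cortical cultures against 10.06 to 10.36 in primary cortex. The mean of 10 astrocyte markers was 9.03 to 9.51 in hippocampal cultures against 8.00 to 8.41 in primary hippocampus, and 8.90 to 9.52 in cortical cultures against 6.99 to 7.43 in primary cortex. Progenitor markers (8 genes) averaged 7.10 to 8.38 in hippocampal cultures against 9.89 to 10.39 in primary hippocampus, and 7.60 to 8.62 in cortical cultures against 9.0 to 9.75 in primary cortex. At least 7 of 8 microglia markers were at background in every culture group, and 2 to 4 of 8 in the tissue groups. More neurons and more RNA per neuron cannot be told apart in such samples, and the part of cell composition in the scaffold differences below was not tested.

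The first comparison asked how far the scaffold mRNAs of 14-day cultures were from those of the embryonic tissue. *Shank3*, *Dlgap2*, *Dlg2*, *Dlg4*, *Dlgap1* and *Dlg3* were higher in culture in both regions, by up to 7.06-fold, while *Dlg1* moved little and *Shank1* stayed at background. In hippocampus, 16 of the 19 probe sets were higher and 2 lower in culture than in tissue, at an adjusted p under 0.05 in limma with Benjamini-Hochberg adjustment. Of these calls, 13 and 2 were among the 15 probe sets above background. Over all probe sets, 36.9% were higher and 31.0% lower in that comparison. In cortex, 15 probe sets were higher and 1 lower (13 and 0 of the 15 above background), against 35.6% and 32.0% of all probe sets. By main probe set, 6 of the 8 genes were higher and 1 lower in hippocampus, where 35.9% of all genes were higher and 36.2% lower. The eighth gene, *Shank1*, was below background in every group and is not read, although its difference of 0.13 in hippocampus passed the test (adjusted p = 0.0105), a call lost with each array centred, with quantile normalization or without mouse ID 2620 (adjusted p = 0.0739, 0.0536 and 0.0502). In cortex 7 genes were higher and 0 lower, where the shares of all genes were 35.3% and 35.9%, and *Shank1* did not pass the test. The median difference over the 8 genes was 1.65 in hippocampus and 1.07 in cortex on the log2 scale, against 0.02 and 0.01 over all genes. The genes in the next paragraphs are taken from the membrane inwards.

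**Figure D1:**
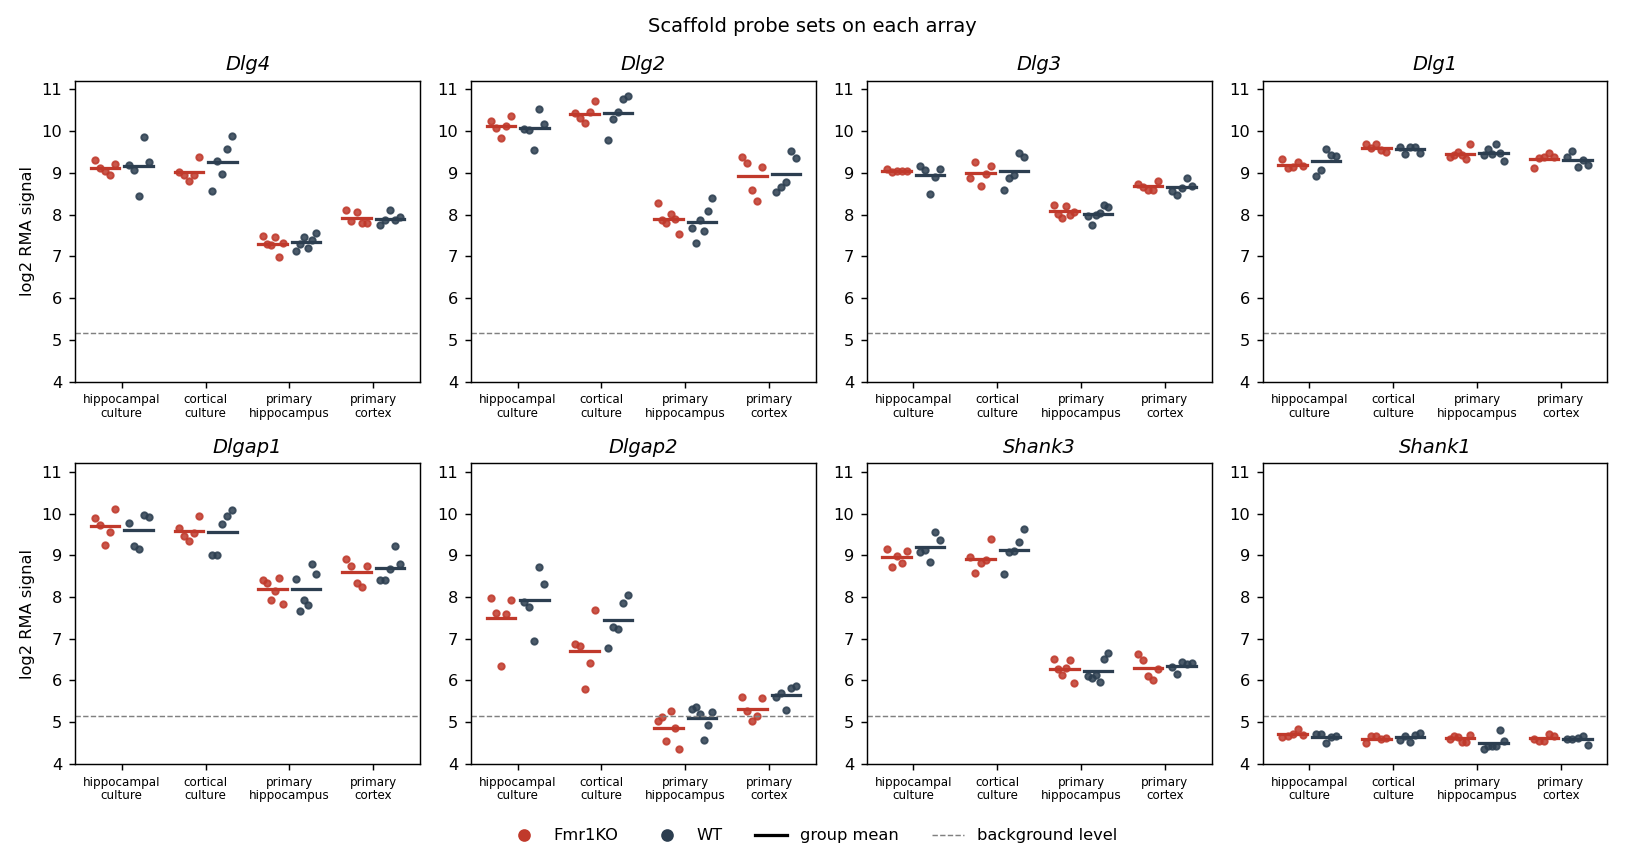
Log2 signal of the main probe set of each of the 8 scaffold genes on each of the 42 arrays, by system and by genotype (KO left of WT). Each point is 1 array (1 pooled litter), bars are group means and the dashed line is the background of 5.16. Culture arrays of *Shank3* lie between 8.56 and 9.62 and tissue arrays between 5.94 and 6.66, whereas *Dlg1* lies between 8.92 and 9.70 in all systems.

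*Dlg4* encodes PSD95, the most studied MAGUK of the excitatory synapse (chromosome 11, 70017203 to 70045535, RefSeq on GRCm38.p6). Its signal ranged from 8.44 to 9.87 in hippocampal cultures (median 9.16, n = 10) and from 6.98 to 7.55 in primary hippocampus (median 7.31, n = 12). In cortical cultures it ranged from 8.56 to 9.88 (median 9.01, n = 10), and in primary cortex from 7.75 to 8.11 (median 7.86, n = 10). Every culture array exceeded every tissue array. The difference was 1.83 ± 0.12 (SE) in hippocampus, a 3.55-fold higher signal in culture (adjusted p = 9.08e-17, limma), and 1.22 ± 0.12 in cortex, or 2.34-fold (adjusted p = 3.08e-11). Another probe set of *Dlg4*, 1419581_at, was higher in culture by 1.87 and 1.16 in hippocampus and cortex. The third, 1460261_at, was not above background in either tissue, so its signal in culture was at least 1.74-fold higher in hippocampus and 1.72-fold higher in cortex, again passing the test (adjusted p = 2.26e-11 and 1.32e-10).

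*Dlg2* encodes PSD93, the closest relative of PSD95 (chromosome 7, 90476188 to 92449246). In hippocampal cultures it gave 9.54 to 10.53 (median 10.10), against 7.33 to 8.40 in primary hippocampus (median 7.87). In cortical cultures it gave 9.78 to 10.84 (median 10.44), against 8.32 to 9.53 in primary cortex (median 8.97). Culture and tissue arrays did not overlap, and all 10 mouse IDs present in all systems had a higher signal in culture in each region. The rise was 2.23 ± 0.14 in hippocampus (4.69-fold, adjusted p = 7.64e-17, limma) and 1.47 ± 0.15 in cortex (2.76-fold, adjusted p = 4.3e-11). The probe sets of *Dlg2* did not behave alike: 1421199_at rose by 0.78 in hippocampus (adjusted p = 1.07e-06) but differed by -0.00 in cortex (adjusted p = 0.992), and 1421200_at, below background in all groups, is not read here.

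*Dlg3* encodes SAP102, a MAGUK that is prominent early in synapse development (chromosome X, 100767411 to 100818410). Its signal was 8.49 to 9.16 in hippocampal cultures, against 7.74 to 8.23 in primary hippocampus, with no overlap. It was 8.58 to 9.47 in cortical cultures, against 8.48 to 8.88 in primary cortex, and these ranges overlapped. The rise in culture was 0.95 ± 0.09 in hippocampus (1.93-fold, adjusted p = 1.21e-12, limma) and 0.36 ± 0.09 in cortex (1.28-fold, adjusted p = 0.000549). All 10 mouse IDs were higher in culture in either region, although the smallest cortical difference was 0.00.

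*Dlg1* encodes SAP97, which is found in epithelia and many other cells besides neurons (chromosome 16, 31663443 to 31873356). Its level was nearly flat, at 9.24 ± 0.19 in hippocampal cultures (SD, n = 10) against 9.47 ± 0.13 in primary hippocampus (n = 12), and at 9.58 ± 0.09 in cortical cultures against 9.33 ± 0.14 in primary cortex (n = 10 each). The ranges overlapped in both regions, 8.92 to 9.57 in hippocampal cultures against 9.28 to 9.70 in primary hippocampus, and 9.45 to 9.70 in cortical cultures against 9.12 to 9.53 in primary cortex. The differences were small and of opposite sign, -0.24 ± 0.06 in hippocampus (adjusted p = 0.00107, limma) and 0.25 ± 0.07 in cortex (adjusted p = 0.000907). The sign held in 8 of 10 mouse IDs in hippocampus and in 9 of 10 in cortex. A second probe set above background, 1450768_at, also fell in hippocampus, by 0.47 (adjusted p = 0.000409), but in cortex differed by -0.24 (adjusted p = 0.0739), so the sign in cortex depends on the probe set.

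The linkers came next. *Dlgap1* encodes GKAP (SAPAP1), which joins PSD95 to Shank (chromosome 17, 69969073 to 70821413). Its main probe set gave 9.15 to 10.12 in hippocampal cultures (median 9.75), against 7.67 to 8.79 in primary hippocampus (median 8.24). It gave 9.0 to 10.08 in cortical cultures (median 9.59), against 8.25 to 9.21 in primary cortex (median 8.70). The arrays overlapped in cortex but not in hippocampus. The rise was 1.47 ± 0.15 in hippocampus (2.77-fold, adjusted p = 2.63e-11, limma) and 0.93 ± 0.16 in cortex (1.90-fold, adjusted p = 1.94e-06). The 4 other *Dlgap1* probe sets above background rose by 1.55 to 1.84 in hippocampus and by 1.05 to 1.71 in cortex.

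*Dlgap2* (SAPAP2, chromosome 8, 14095776 to 14853426) is a second member of the linker family and varied most between litters in the cultures, though not in the tissues. It gave 6.34 to 8.73 in hippocampal cultures (median 7.82), against 4.37 to 5.36 in primary hippocampus (median 5.08). It gave 5.80 to 8.05 in cortical cultures (median 7.06), against 5.04 to 5.88 in primary cortex (median 5.58). The hippocampal ranges were separate and the cortical ranges overlapped at their edge. Its SD was 0.67 and 0.69 in the hippocampal and cortical cultures, larger than for any other scaffold gene. Because primary hippocampus was not above background for *Dlgap2*, with a mean of 4.99, only a bound holds there: the signal of hippocampal cultures was at least 5.84-fold higher, taking the dim group at the background level (adjusted p = 2.84e-15, limma). In cortex the rise was 1.59 ± 0.21 (3.01-fold, adjusted p = 1.27e-08), with primary cortex little above background at a mean of 5.49.

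*Shank3*, the deep-layer scaffold whose loss causes Phelan-McDermid syndrome in humans, lies on chromosome 15 (89493013 to 89560261). It had the largest rise of the scaffolds measured on both sides of the comparison. Its signal was 8.72 to 9.56 in hippocampal cultures (median 9.09), against 5.94 to 6.66 in primary hippocampus (median 6.20). It was 8.56 to 9.62 in cortical cultures (median 9.02), against 6.01 to 6.63 in primary cortex (median 6.36). The gap between the lowest culture array and the highest tissue array was wider than the whole range within any system. The rise was 2.82 ± 0.11 in hippocampus (7.06-fold, adjusted p = 1.15e-23, limma) and 2.70 ± 0.11 in cortex (6.51-fold, adjusted p = 2.25e-22). *Shank1* (chromosome 7, 44308916 to 44360094) gave 4.37 to 4.84 on all 42 arrays, below background in every group, so its probe set gives no level and no fold.

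**Figure D2:**
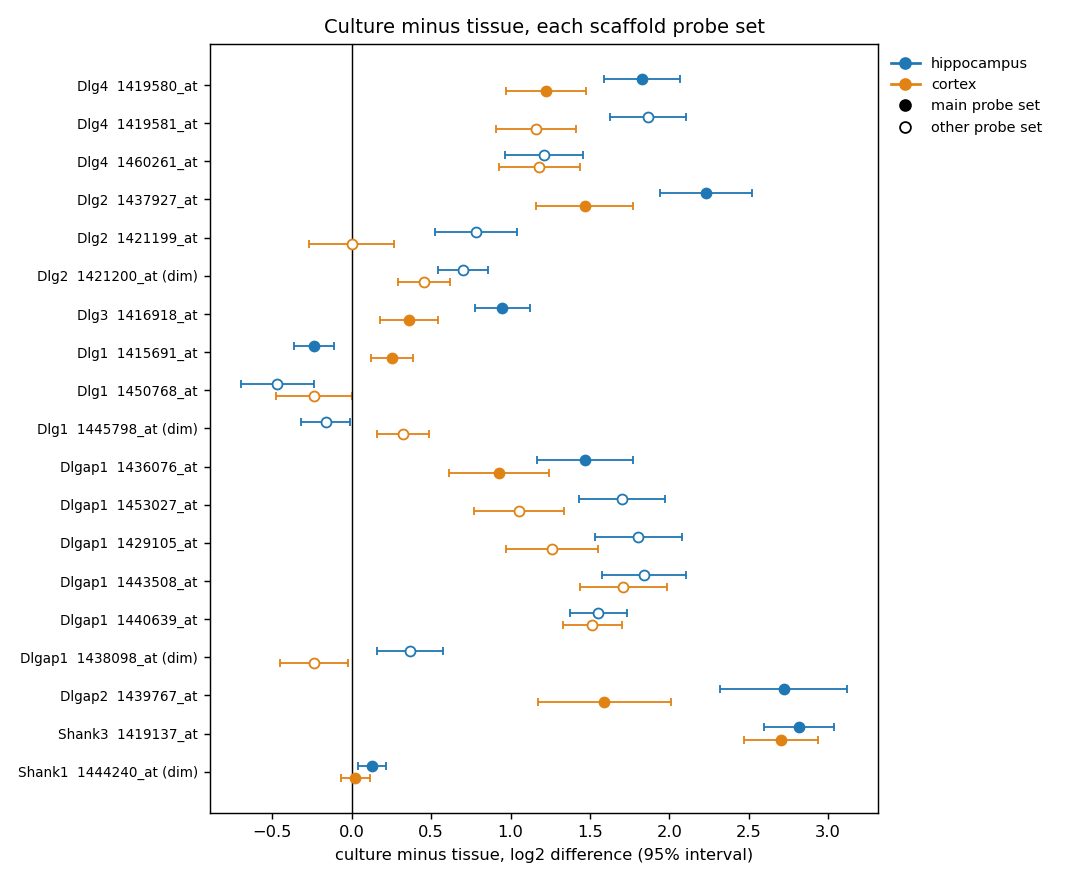
Difference in log2 signal, culture minus tissue, for each of the 19 scaffold probe sets in hippocampus and in cortex, with 95% confidence intervals from limma (filled points, main probe sets; dim, below background in all groups). *Shank3* sits at 2.82 and 2.70 in the hippocampal and cortical comparison, and *Dlg1* sits at -0.24 and 0.25, on either side of 0, while *Dlgap2* in hippocampus and 1460261_at of *Dlg4* in both regions are drawn as fitted although their tissue was not above background.

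The promoter windows of the gene with the largest rise, of a riser with a different base composition and of the gene that stayed flat are shown for comparison. They come from RefSeq on GRCm38.p6 and span 250 bases before to 50 bases from an annotated transcript start, given 5′ to 3′ on the plus strand, with GC boxes (GGGCGG on either strand, read as CCGCCC on the minus strand) in capitals.
Shank3, chr15:89499358-89499657: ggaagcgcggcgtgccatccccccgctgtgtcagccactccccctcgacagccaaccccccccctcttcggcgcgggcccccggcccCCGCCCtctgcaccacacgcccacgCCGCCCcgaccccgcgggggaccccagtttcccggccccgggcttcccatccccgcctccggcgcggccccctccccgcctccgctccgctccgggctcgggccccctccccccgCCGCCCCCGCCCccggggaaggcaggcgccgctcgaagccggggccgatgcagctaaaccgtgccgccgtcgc
Dlg2, chr7:91090536-91090835: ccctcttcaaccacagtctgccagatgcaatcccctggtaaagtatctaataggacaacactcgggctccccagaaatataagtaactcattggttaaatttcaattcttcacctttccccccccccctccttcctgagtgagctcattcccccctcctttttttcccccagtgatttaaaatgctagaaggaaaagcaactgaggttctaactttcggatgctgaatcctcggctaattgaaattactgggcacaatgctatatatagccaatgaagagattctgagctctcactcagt
Dlg1, chr16:31663193-31663492: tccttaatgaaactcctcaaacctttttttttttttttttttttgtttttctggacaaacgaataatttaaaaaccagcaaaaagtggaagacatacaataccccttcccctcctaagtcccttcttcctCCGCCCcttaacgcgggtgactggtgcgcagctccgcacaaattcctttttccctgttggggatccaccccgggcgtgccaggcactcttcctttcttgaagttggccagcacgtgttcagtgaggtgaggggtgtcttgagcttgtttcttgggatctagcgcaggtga
The *Shank3* window, the only one in the table and inside the gene rather than at its 5′ end, holds 4 GC boxes, none of which overlaps another, with 81.0% G+C and 40 CpG, more CpG than in 96.1% of the 32851 windows of the table. The *Dlg2* window, the most upstream of 3 in the table but not at the gene's start, holds 0 GC boxes, 44.7% G+C and 3 CpG. The first of the 4 *Dlg1* windows holds 1 GC box, 47.3% G+C and 10 CpG, and an E-box (CACGTG) that begins at position -10 from the start. The second *Dlg1* window, not printed, holds 2 GC boxes, 71.0% G+C and 27 CpG, and also an E-box, so the base composition depends on the start chosen. Over all windows the median was 52.7% G+C and 7 CpG, 35.7% held a GC box and 7.15% held that E-box. In total, 6 of the 9 scaffold genes had windows, 15 in number, of which 5 held a GC box, 3 the E-box, 5 a CCAAT box (37.4% of all windows), 2 a TATAAA match (13.6%), 2 the cAMP response element core TGACG (20.8%) and 0 the whole element TGACGTCA (1.79%). These are matches of letters on both strands and say nothing of binding.

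The rise in culture was larger in hippocampus than in cortex for 4 of the 8 genes. The difference between the regional changes (hippocampus minus cortex, an interaction in limma) was 0.77 ± 0.21 for *Dlg2* (adjusted p = 0.00465), 0.60 ± 0.17 for *Dlg4* (adjusted p = 0.00666) and 0.59 ± 0.12 for *Dlg3* (adjusted p = 0.000309). For *Dlgap2*, primary hippocampus was not above background and primary cortex was little above it, so the cortical rise may be understated. With primary hippocampus at the background level and the cortical rise taken as fitted, the difference was at least 0.96 (adjusted p = 0.00243 as fitted). For *Dlg1*, whose changes had opposite signs, it was -0.49 ± 0.09 (adjusted p = 5.99e-05). *Shank3* did not pass the test, with a difference of 0.12 and a 95% interval of -0.20 to 0.43. *Dlgap1* gave 0.54 (adjusted p = 0.0555), and passed when the mouse ID was fitted as a replicate block (adjusted p = 0.0354). Of the 19 probe sets, 9 were called with a positive and 2 with a negative difference, against 13.9% and 13.5% of all probe sets, and 8 and 1 of these calls were among the 15 probe sets above background. Both negative calls were probe sets of *Dlg1* whose changes had opposite signs in the regions, and 1 of them was below background in all groups. The other *Dlgap1* probe sets above background were divided: 1453027_at and 1429105_at gave 0.65 and 0.55 and passed (adjusted p = 0.0105 and 0.0342). In contrast, 1443508_at and 1440639_at gave 0.13 and 0.04 (adjusted p = 0.674 and 0.869).

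The levels of the regions were then compared within tissue and within culture. These comparisons are not separate from the interaction above, which equals the region difference in culture minus that in tissue. In tissue, hippocampus was lower than cortex for *Dlg2*, with 7.87 ± 0.31 in primary hippocampus and 8.96 ± 0.42 in primary cortex (SD, n = 12 and 10), a difference of -1.09 ± 0.14 (SE, adjusted p = 9.6e-08, limma). *Dlg3* averaged 8.05 ± 0.15 in primary hippocampus and 8.66 ± 0.12 in primary cortex (difference -0.62, adjusted p = 2.65e-07), and *Dlg4* averaged 7.32 ± 0.16 and 7.92 ± 0.14 in the same order (difference -0.60, adjusted p = 0.000115). For these 3 MAGUKs all 10 mouse IDs with both tissues had the lower signal in hippocampus. *Dlgap1* was lower by 0.46 in hippocampus (adjusted p = 0.0162). *Dlgap2* was not above background in primary hippocampus, where cortex was at least 1.26-fold higher (adjusted p = 0.0475), and leaving out any of 9 of the 12 mouse IDs ended this call. *Shank3* differed by -0.07 between the tissues (adjusted p = 0.697) and *Dlg1* by 0.15 (adjusted p = 0.0751). In all, 12 of the 19 probe sets were lower and 0 higher in primary hippocampus (10 and 0 of the 15 above background), against 15.9% and 15.2% of all probe sets.

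In culture most of these regional differences were small. *Dlg3*, *Dlg4*, *Shank3* and *Dlgap1* differed between hippocampal and cortical cultures by -0.03 to 0.09, and none passed the test. The 95% intervals were -0.21 to 0.15 for *Dlg3* and -0.24 to 0.26 for *Dlg4*, so a difference as large as in tissue lies outside them. *Dlg1* was lower in hippocampal than in cortical cultures by 0.34 (adjusted p = 9.34e-05, limma), in all 10 mouse IDs. *Dlgap2* was higher in hippocampal cultures by 0.62 ± 0.21 (adjusted p = 0.0230) in 9 of 10 mouse IDs. That call was lost without mouse ID 2037, 2236 or 2620, and with only the arrays compared (adjusted p = 0.106). *Dlg2* differed by -0.33 (adjusted p = 0.113), lower in hippocampal cultures in 9 of 10 mouse IDs, and passed with the mouse ID within cultures or tissues as a replicate block (adjusted p = 0.0479) but not with the mouse ID over all systems as the block (adjusted p = 0.0801). Altogether 2 probe sets were higher and 2 lower in hippocampal cultures (1 and 1 of the 15 above background), against 12.6% and 12.4% of all probe sets.

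**Figure D3:**
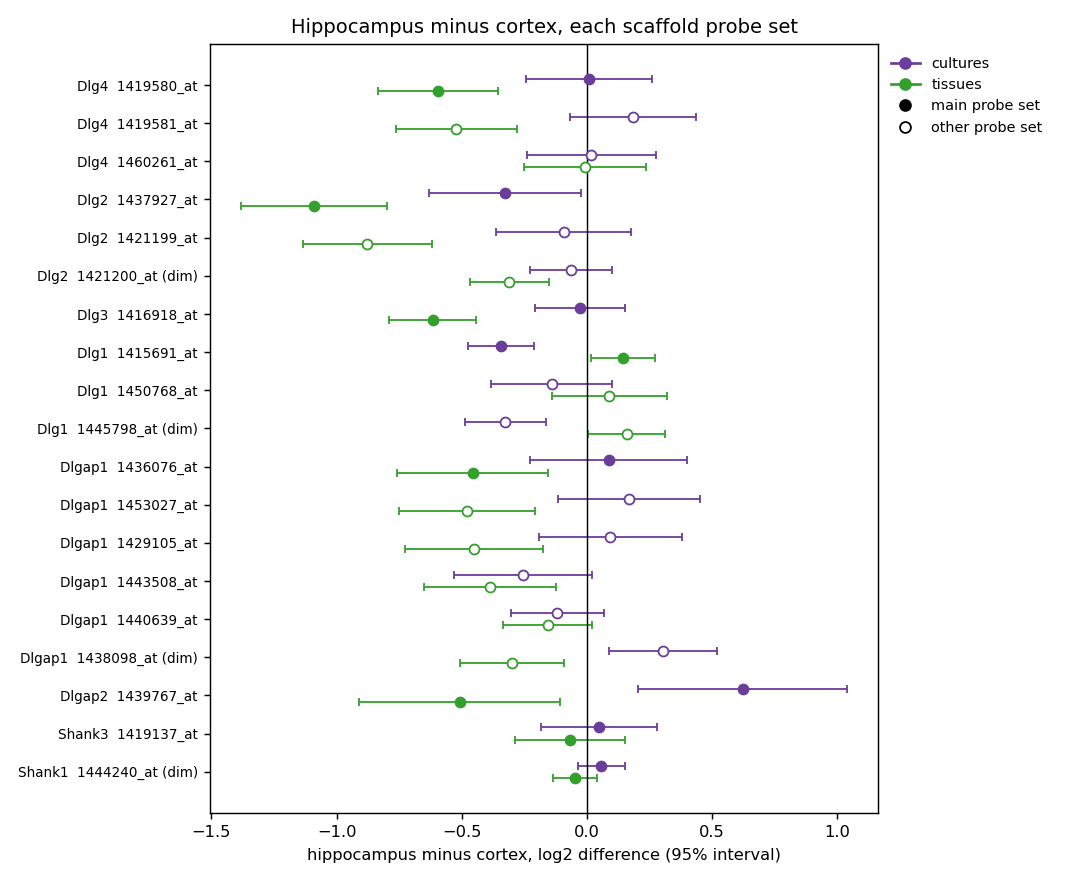
Difference in log2 signal, hippocampus minus cortex, for each of the 19 scaffold probe sets in cultures and in tissues, with 95% confidence intervals from limma (filled points, main probe sets; dim, below background in all groups). The main probe sets of *Dlg3* and *Dlg4* lie at -0.03 and 0.01 in cultures and at -0.62 and -0.60 in tissues, and the tissue points of *Dlgap2* and 1460261_at of *Dlg4* rest on signals not above background.

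The markers moved between the tissues too, where 19.6% of all genes were higher and 16.7% lower in primary hippocampus. Of the 10 pan-neuronal markers, 0 were higher and 9 lower in primary hippocampus than in primary cortex (median -0.41), 7 of 10 astrocyte markers were higher and 1 lower (median 1.10), and 6 of 8 progenitor markers were higher and 0 lower (median 0.59). GABAergic markers were lower in 6 of 7 and glutamatergic markers in 3 of 5, with 0 higher in each list. Markers of microglia (7 of 8), choroid plexus (4 of 4), meninges (4 of 4) and endothelium (4 of 6) were higher, with 0 lower in each, and oligodendrocyte markers had 0 of 7 higher and 1 lower. Their part in the lower *Dlg2*, *Dlg3* and *Dlg4* signal was not tested.

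The genotype comparison asked whether loss of *Fmr1* changed scaffold mRNA in any system. Few probe sets were called: by an unadjusted p under 0.05 in limma, the threshold of the study's methods, 0 of 19 probe sets were called in hippocampal cultures (8.78% of all probe sets), 0 in primary hippocampus (1.71%) and 0 in primary cortex (1.94%). In cortical cultures 2 were called (9.67%), both lower in KO (5.23% of all probe sets were lower), *Dlgap2* and 1440639_at of *Dlgap1*. No scaffold probe set passed after Benjamini-Hochberg adjustment in any system, and the KO and WT ranges of every main probe set overlapped in all 4 systems.

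*Dlgap2* showed the largest genotype differences among the scaffolds. In cortical cultures the 5 KO arrays gave 6.87, 6.82, 5.80, 6.42 and 7.68, and the 5 WT arrays gave 6.79, 7.29, 7.24, 7.86 and 8.05. The lowest array was a KO array and the 2 highest were WT arrays, with overlap between. The difference was -0.73 ± 0.29 (95% interval -1.32 to -0.13), a 1.65-fold lower signal in KO that passed the unadjusted threshold in limma (adjusted p = 0.432). An exact two-sided permutation test of these 10 arrays alone, added after seeing the values, gave p = 0.111. In hippocampal cultures the KO arrays gave 7.97, 7.61, 6.34, 7.59 and 7.93, and the WT arrays 7.87, 7.76, 6.95, 8.73 and 8.31, which gave a difference of -0.44 (95% interval -1.03 to 0.16, adjusted p = 0.713, exact permutation p = 0.341). The lowest KO array in each culture type came from mouse ID 2221. Without that mouse ID the difference was -0.50 in cortical cultures (adjusted p = 0.689) and -0.15 in hippocampal cultures (adjusted p = 0.914), and the call in cortical cultures was lost. It was also lost without mouse ID 2620 (difference -0.65, adjusted p = 0.607) or the mouse labelled NT (difference -0.58, adjusted p = 0.574).

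**Figure D4:**
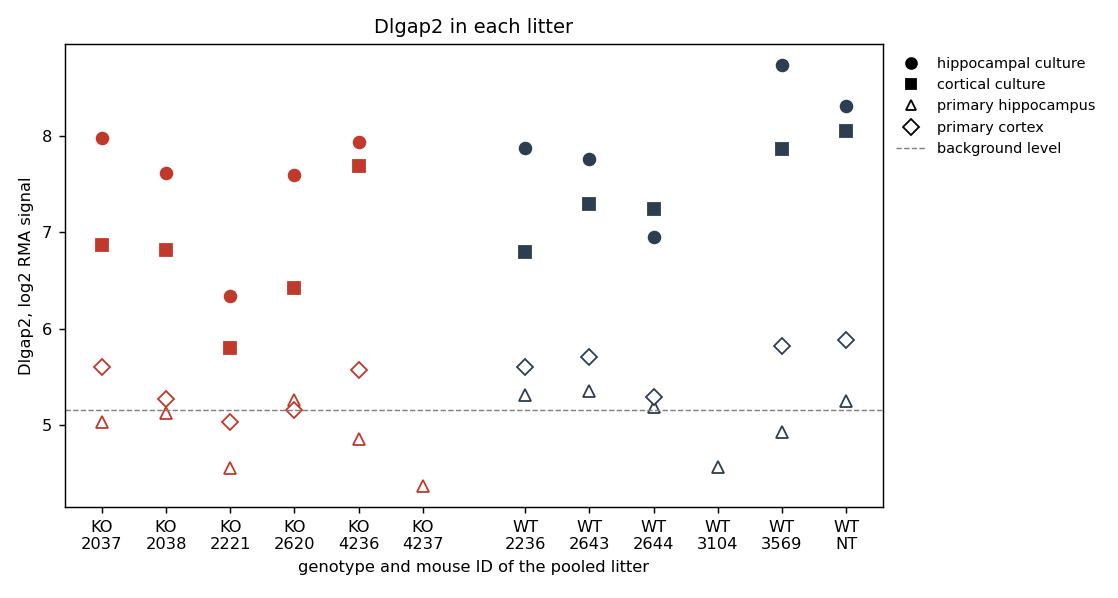
Log2 signal of *Dlgap2* for each pooled litter, by mouse ID, KO left of WT; symbols mark the 4 systems and the dashed line is the background of 5.16. KO mouse ID 2221 is lowest of its group in both culture types, at 6.34 in hippocampal and 5.80 in cortical cultures.

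In the tissues *Dlgap2* averaged 5.33 ± 0.25 in KO and 5.66 ± 0.23 in WT primary cortex (SD, n = 5 each). The difference was -0.33 (95% interval -0.92 to 0.26). That interval uses the spread over all 8 groups, which was larger in cultures, so it may be too wide here. In primary cortex 3 of the 5 KO arrays lay below the lowest WT array. Fitted on only the primary cortex arrays, *Dlgap2* was called lower in KO, though not after adjustment. In primary hippocampus both genotypes were below background. In a test of the genotype effect in cultures against that in tissues, 0 of 19 probe sets were called (7.18% of all probe sets), although for *Dlgap2* its tissue side rests partly on signals below background. Averaged over both culture types, a comparison chosen after seeing the values, 3 probe sets were lower in KO (6.03% of all probe sets): *Dlgap2* by 0.58 (adjusted p = 0.187), 1440639_at of *Dlgap1* by 0.20 (adjusted p = 0.328) and 1460261_at of *Dlg4* by 0.26 (adjusted p = 0.364). Without mouse ID 2221 the *Dlgap2* difference over both cultures was -0.32 and no longer passed the unadjusted threshold (adjusted p = 0.488), and without mouse ID 3569 it was -0.43 and did not pass either (adjusted p = 0.365).

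*Shank3* in hippocampal cultures gave 9.14, 8.72, 8.99, 8.82 and 9.11 in KO and 9.07, 9.13, 8.85, 9.56 and 9.37 in WT. In cortical cultures it gave 8.95, 8.57, 8.81, 8.88 and 9.39 in KO and 8.56, 9.08, 9.10, 9.31 and 9.62 in WT. The genotypes overlapped in each culture type. The differences were -0.24 (95% interval -0.57 to 0.08) and -0.21 (-0.54 to 0.12) in hippocampal and cortical cultures, and -0.23 over both (adjusted p = 0.385, limma), against 0.04 and -0.05 in primary hippocampus and primary cortex.

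*Dlg4*, whose mRNA FMRP is known to bind, gave 9.03, 8.94, 8.80, 8.94 and 9.38 in KO cortical cultures and 8.56, 9.28, 8.98, 9.58 and 9.88 in WT. Its spread was wider in WT than in KO, and the difference of -0.24 did not pass the test (95% interval -0.59 to 0.12, adjusted p = 0.676, limma). In hippocampal cultures *Dlg4* differed by -0.04 (95% interval -0.40 to 0.31). By main probe set, *Dlg1*, *Dlg2*, *Dlg3* and *Dlgap1* differed by -0.10 to 0.11 in all systems. The intervals of *Dlgap1* were the widest of these and reached -0.54 in primary cortex and 0.55 in hippocampal cultures. Among other probe sets, 1460261_at of *Dlg4* averaged 5.83 in KO and 6.09 in WT hippocampal cultures, and 1419581_at 8.58 and 8.53. For *Dlg2*, 1421199_at averaged 6.27 in KO and 6.07 in WT hippocampal cultures, and 6.15 and 6.37 in cortical cultures. For *Dlg1*, 1450768_at averaged 7.67 in KO and 7.81 in WT cortical cultures. None of these was called.

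**Figure D5:**
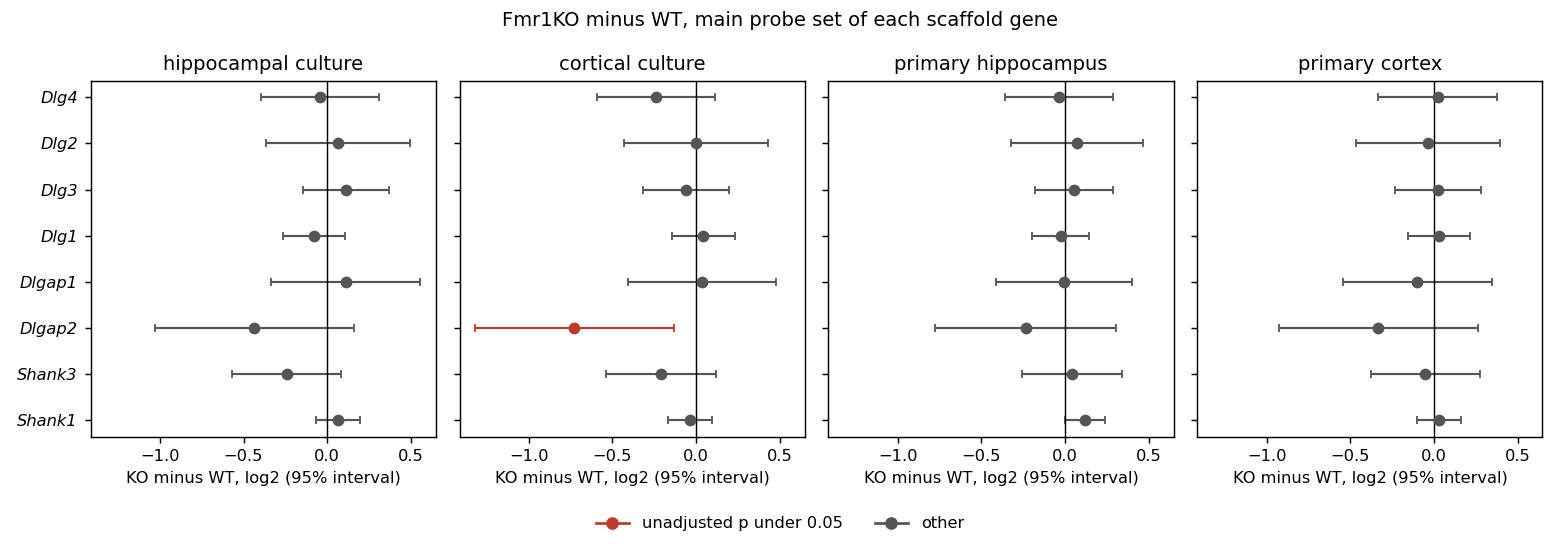
Difference in log2 signal, KO minus WT, for the main probe set of each scaffold gene in the 4 systems, with 95% confidence intervals from limma. Only the interval of *Dlgap2* in cortical cultures, -1.32 to -0.13, lies wholly on 1 side of 0, and its point in primary hippocampus rests on signals below background.

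Single culture arrays were low for several scaffolds at once. In hippocampal cultures the WT array of mouse ID 2644 had the lowest WT signal for 6 of the 6 scaffolds that rose in culture (*Dlg2*, *Dlg3*, *Dlg4*, *Shank3*, *Dlgap1* and *Dlgap2*). On that array the pan-neuronal markers averaged 10.58, against 11.10 to 11.28 on the other WT arrays, and the progenitor markers 8.38, against 7.20 to 7.77. In cortical cultures the WT array of mouse ID 2236 was lowest for 6 of 6, with pan-neuronal markers at 10.53, against 10.90 to 11.14, and progenitor markers at 8.62, against 7.60 to 8.24. The KO array of mouse ID 2221 was the lowest KO array for 5 of 6 in cortical cultures, with pan-neuronal markers at 10.73, against 10.76 to 11.12. The low WT arrays were not the same mouse IDs in both culture types. Mouse ID 2644 was lowest for 0 of 6 in WT cortical cultures, and 2236 for 0 of 6 in WT hippocampal cultures. Among KO arrays, however, mouse ID 2221 was low in both culture types. It was lowest for 3 of 6 in KO hippocampal cultures, more than any other KO array there. The part of cell composition in these arrays' scaffold signals was not tested. Leaving out mouse ID 2236 left *Shank3* lower by 0.35 (adjusted p = 0.350) and *Dlg4* lower by 0.41 (adjusted p = 0.300) in KO cortical cultures, each past the unadjusted threshold. Then 7 scaffold probe sets were called lower in place of 2. The share of all probe sets called in that fit is not given, so the count is not read as particular to the scaffolds. With mouse ID 2644 left out, *Dlgap2* was lower by 0.68 in KO hippocampal cultures and passed that threshold (adjusted p = 0.715).

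The other proteins of the postsynaptic density did not all move with the scaffolds, and the counts below stand against 35.9% of all genes higher and 36.2% lower in hippocampus and 35.3% higher and 35.9% lower in cortex. Of 29 further scaffolds and enzymes measured, 20 were higher and 5 lower in culture than in tissue in hippocampus (median 0.51), and 15 were higher and 12 lower in cortex (median 0.36). Of 17 receptors and adhesion proteins that the scaffolds tether, 15 were higher and 1 lower in hippocampus (median 1.22), and 14 were higher and 2 lower in cortex (median 0.74). The 5 genes of the inhibitory postsynaptic scaffold had 4 higher and 1 lower in hippocampus and 3 higher and 1 lower in cortex, whereas the 9 MAGUKs and relatives that act outside the synapse had 2 higher and 3 lower in hippocampus and 4 higher and 4 lower in cortex (medians -0.07 and -0.08). By the mean of both regions, the largest rises were those of *Camk2a*, the alpha subunit of the kinase CaMKII (5.31 in hippocampus and 4.53 in cortex), of *Lgi1*, a secreted ligand that is linked to PSD95 through ADAM22 (3.51 and 2.40), and of *Kcna4*, a potassium channel that PSD95 binds (3.26 in cortex, and at least 3.13 in hippocampus, where primary hippocampus was not above background). *Mpp7*, a MAGUK of epithelial cell polarity, fell by 1.41 and 1.22, *Cacng8*, an AMPA receptor auxiliary subunit, by 0.54 and 1.25, and *Lin7c*, a small PDZ adaptor, by 0.68 and 1.02 (hippocampus and cortex, adjusted p under 0.05 for each, limma). *Cacng8* averaged 5.21 in cortical cultures, little above background, and was at background in the WT group. *Mpp7* was also near background in hippocampal and cortical cultures, at 5.32 and 5.47.

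In the markers, the same comparison gave 8 of 10 pan-neuronal genes higher and 2 lower in hippocampal culture and 7 higher and 2 lower in cortical culture. Astrocyte markers had 6 of 10 higher and 2 lower in hippocampus and 10 higher and 0 lower in cortex. Glutamatergic markers had 1 of 5 higher and 4 lower in each region, and GABAergic markers 4 of 7 higher, with 2 lower in hippocampus and 3 lower in cortex. Progenitor markers had 0 of 8 higher and 8 lower in hippocampus and 2 higher and 5 lower in cortex, microglia markers 0 of 8 higher and 7 lower in each, endothelial markers 0 of 6 higher and 5 lower in each, and oligodendrocyte markers 1 of 7 higher and 3 lower in hippocampus and 5 higher and 1 lower in cortex.

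For genotype, 4 of the 29 further scaffolds and enzymes had an unadjusted p under 0.05 in hippocampal cultures (3 higher and 1 lower in KO) and 3 in cortical cultures (1 higher and 2 lower), where 9.54% and 10.2% of all genes did. In each culture type *Dlgap3* (SAPAP3), the linker relative of *Dlgap1* and *Dlgap2*, was lower in KO, by 0.35 in hippocampal and 0.40 in cortical cultures, and over both by 0.38 (adjusted p = 0.0474, limma). That call was lost with the mouse ID as a replicate block, over all systems or within cultures and tissues (adjusted p = 0.0704 and 0.179). It was also lost with each array centred, with quantile normalization and with trend and robust eBayes (adjusted p = 0.0537, 0.0573 and 0.0595), but kept with array weights (0.0326). The adjusted p ranged from 0.0140 to 0.267 when each mouse ID was left out in turn, and passed only without 2644 or 4236. *Kcnj4*, an inward rectifier potassium channel that PSD95 binds, was lower by 0.39 and 0.42 (adjusted p = 0.156 over both), and *Iqsec3*, an exchange factor of inhibitory synapses, by 0.48 and 0.32 (adjusted p = 0.0642). *Grip1*, a PDZ scaffold of AMPA receptors, was higher by 0.27 and 0.32 (adjusted p = 0.0612). These 4 genes, of 60 on the postsynaptic lists (6.67%), passed the unadjusted threshold in each culture type, as did 1.87% of all genes, and the lists' share was not tested.

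Across the 42 arrays, the genes most like each scaffold by Pearson's r among 12625 genes above background were as follows, with arrays that share systems and litters, so that r describes mainly the differences between systems. *Shank3* had 452 genes with r above 0.95, led by *Kifc2* and *Kif5a*, both kinesins (r = 0.99 each). *Dlg4* had 94 such genes, led by *Pcnx2* (0.98) and *Aatk* (0.97), and *Dlg2* had 65, led by *Dclk1* and *Rgs7* (0.98 each). *Dlgap1* and *Dlgap2* had 4 each, led by *Wsb2* and *Anks1b* (0.96 each) and by *Got1* (0.96) and *Gpr162* (0.95). *Dlg3* had 2, *Camk2n1* and *Prkar1b* (0.96 each). *Dlg1* had 0, its nearest being *Mthfd1*, a folate enzyme (0.76), and *Psrc1*, a mitotic spindle protein (0.73).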

How the data were processed

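RNA (100 ng per array) from 42 pooled-litter samples was hybridized to Affymetrix mouse genome arrays. The deposited values are log2 signals per probe set, which the authors obtained by robust multi-array average (RMA). The set of arrays that went into each normalization is not given in the sources used here, and the quantile step of RMA hides global shifts. Array medians were 5.40 to 5.56.

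Of 45101 probe sets, 64 controls were left out. GEO's platform annotation gave 1 gene for 34945 probe sets, several for 932 and none for 9160, and 34741 were matched to RefSeq. Background was the 95th percentile of the mean signal of 123 probe sets of olfactory, vomeronasal and keratin-associated genes (60.6% of probe sets exceeded it). The means of the 8 groups were fitted over all probe sets with limma 3.58.1 (R 4.3.3), with moderated tests (34 residual and 3.58 prior degrees of freedom) adjusted over 45037 probe sets by Benjamini-Hochberg. An exact permutation test was added for *Dlgap2*. The call threshold was 0.05, applied to the adjusted p for region and culture and, as in the study's methods, to the unadjusted p for KO. P-values and intervals of the main fit measure the spread between pooled litters, taken over all 8 groups together for each probe set. For some genes that spread differed between systems. The SD of *Dlgap2* was 0.67 and 0.69 in hippocampal and cortical cultures, against 0.33 and 0.29 in primary hippocampus and primary cortex. Intervals for such genes may be too narrow in cultures and too wide in tissues. The scripts were checked on simulated data. Tables and plots used Python 3.11.15, pandas 2.3.3 and Matplotlib 3.10.9.

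Arrays of 1 mouse ID deviated together within a preparation (r = 0.298 to 0.587 between both tissues, -0.142 to 0.617 between both cultures) but hardly between culture and tissue (median r = 0.0419), so the mouse ID was tried as a replicate block. Named genes were the scaffolds, *Fmr1*, the 3 largest rises and falls among other postsynaptic genes, those with p under 0.05 in both culture types, and the 2 genes most like each scaffold. The genes and lists were chosen with earlier results of these data known.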

Additional observations from a re-analysis of the deposited data

Results flagged for a closer look

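*Dlgap2* had 1 array far from the rest of its group: in KO hippocampal cultures mouse ID 2221 gave 6.34, against 7.59 to 7.97 on the other 4 arrays, a gap of 0.769 of the group's range. It was the only such array among 64 groups of scaffold values tested. Chance alone flags about 1 in 20 groups, so 1 of 64 is not more than chance gives.

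The culture change differed between the regions for 5 scaffold genes (hippocampus minus cortex, limma interaction, the same fit as above). The fitted difference was 1.13 for *Dlgap2* (adjusted p = 0.00243), of which only a bound of 0.96 can be read, since primary hippocampus was not above background. That bound takes the cortical rise as fitted, although primary cortex was little above background. The difference was 0.77 for *Dlg2* (adjusted p = 0.00465), 0.60 for *Dlg4* (adjusted p = 0.00666), 0.59 for *Dlg3* (adjusted p = 0.000309) and -0.49 for *Dlg1* (adjusted p = 5.99e-05).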

How the results depend on the processing

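Counts below are of the 19 scaffold probe sets unless all probe sets are named. Requiring a 2-fold change besides an adjusted p under 0.05 left 11 of 18 calls for culture against tissue in hippocampus, 10 of 16 in cortex, 1 of 11 for the difference between regions, 1 of 12 for hippocampus against cortex in tissue and 0 of 4 in culture. Over all probe sets that rule left 7055 of 30571, 6722 of 30414, 1749 of 12348, 1371 of 14010 and 893 of 11229 calls, in the same order. For the other settings the share of all probe sets is not given, so changed counts are not read as particular to the scaffolds. Between cultures, 2 of 4 calls were left with the filter on dim probe sets and 2 with only the arrays compared, and 2 to 4 when each mouse ID was left out in turn. KO calls in cortical cultures were 2, against 7 with array weights, 1 with only the arrays compared, 0 at an adjusted p under 0.05 and 0 to 7 without 1 mouse ID. In hippocampal cultures they were 0, against 1 with array weights and 0 to 1 without 1 mouse ID. In primary hippocampus they were 0, against 1 with quantile normalization and 0 to 1 without 1 mouse ID. In primary cortex they were 0, against 1 with only the arrays compared, that of *Dlgap2*. The KO effect in cultures minus that in tissues had 0 calls, 1 with trend and robust eBayes, 4 with array weights, 1 with the mouse ID as replicate block and 0 to 2 without 1 mouse ID. Over both cultures, 3 calls became 1 with each array centred, 7 with array weights, 0 after adjustment and 1 to 7 without 1 mouse ID. Taking the probe set with the smallest p turned *Dlgap1* to -0.28 in cortical cultures and -0.20 over both, against 0.04 and 0.07 by its main probe set, and also gave -0.27 in hippocampal cultures and -0.32 for cultures minus tissues, against 0.11 and 0.13, with no call on either side. The causes were not tested. The replicate block within tissue or culture, added after seeing the data, made *Dlg2* in cultures pass (adjusted p = 0.0479) and *Dlgap1* for the difference between regions (adjusted p = 0.0224). Apart from leaving out mouse IDs, 690 of 713 comparisons of single genes stayed on their side of the threshold, 663 with the same sign and 27 with another sign that was called under neither setting. Differences between regions and between KO effects were not fitted on only the arrays compared, since they need several systems. The number of arrays limits the precision, and signals near 5.16 say little.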
